A study of Mus musculus with 12 samples.

Results

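The caudate putamen of control mice was described from 6 Illumina bead arrays, 1 for each control sample, out of 12 arrays in the study. Of the 45281 probes on the array, 17865 (39.5%) had a detection p-value under 0.05 on all 6 control arrays, and these are the transcripts described here. The mice were male C57BL/6J animals aged 12 weeks, and total RNA was taken from the caudate putamen with a column kit (RNeasy Plus Mini). The treatment tag of these 6 samples reads control, while the treatment protocol text, which describes maternal ethanol drinking, is attached to all 12 samples alike, and what the control mothers received is not stated in the sources used here. The sample titles carry a shared number for controls 1 to 3 and a different number for controls 4 to 6. That number was read as the array chip, here called chip 1 and chip 2, although the titles do not name it so. Nothing in the labels ties a sample to a separate animal or litter, and the spread given below, which may be partly technical, is that between these 6 samples.

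The caudate putamen is the dorsal part of the rodent striatum and the main entry point of the basal ganglia. Most of its neurons are GABAergic projection neurons: those of the direct pathway carry the dopamine D1 receptor, substance P and dynorphin, and those of the indirect pathway carry the dopamine D2 receptor and enkephalin. Cholinergic and GABAergic interneurons, myelinated fibre bundles, astrocytes, microglia and vessels make up the rest of the tissue. Because the RNA came from whole tissue, fewer cells of a type and less RNA per cell cannot be told apart in any value below.

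The number of probes detected on a single control array ran from 19755 on control 1 to 21949 on control 4, with a mean of 20685.5 ± 727.05 (SD, n = 6). A further 20801 probes (45.9%) were detected on no control array and 6615 (14.6%) on 1 to 5 of them. The probes carried the symbols of 19057 genes, of which 9920 (52.1%) had a probe detected on all 6 arrays and 6399 (33.6%) had none detected on any. Levels are log2 intensities after background correction and quantile normalization, the brightest detected probe stands for its gene, and the rank of a probe is its place by raw intensity among all 45281 probes of an array, with rank 1 the brightest. Probes bind with different strength, so a rank orders signals and not amounts of transcript. The labels passed the check of sex: 4 probes for Xist, the RNA of the inactive X chromosome, were detected on 0 arrays. The Y-linked Eif2s3y and Kdm5d were each detected on all 6 by 1 of 2 probes. Uty, also Y-linked and with 4 probes, was detected on at most 5 arrays.

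The 7 genes taken as markers of striatal projection neurons were all detected on all 6 arrays, which is the condition by which probes entered this description. Pde1b, a calcium- and calmodulin-dependent phosphodiesterase, was the brightest of them, at 14.90 to 15.20 (median 15.03, mean 15.03 ± 0.11 SD, n = 6) and ranks 23 to 32. Ppp1r1b, which encodes DARPP-32, the phosphatase inhibitor through which dopamine signals act on other proteins, lay between 14.68 on control 1 and 15.09 on control 2 (median 14.86, mean 14.85 ± 0.14) and held ranks 25 to 50. Rasd2, a striatum-enriched small GTPase also called Rhes, stood at 14.59 ± 0.06 with ranks 53 to 69. These 3 transcripts therefore stayed among the brightest 100 probes on every control array. Gng7, the G-protein gamma subunit that couples dopamine receptors to adenylyl cyclase, measured 14.39 ± 0.12, with control 4 lowest at 14.16 and the other arrays at 14.34 or above. Tac1, the precursor of substance P, measured 12.92 ± 0.13 (12.75 to 13.07) and Drd1, the dopamine D1 receptor, 12.68 ± 0.13 (12.59 to 12.91). Penk, the enkephalin precursor, had the dimmest probe of the 7, at 10.86 ± 0.09 (10.74 to 10.98) and ranks 2115 to 2471. By its brightest probe, no marker varied by more than 0.41 log2 units between its lowest and its highest array. The ranges of the 2 chips overlapped for each except Drd1, where the lowest array of chip 2, at 12.613, lay just above the highest of chip 1, at 12.611. Dimmer probes of Ppp1r1b ran from 10.71 to 11.27 and from 8.91 to 9.34, with Pearson r of -0.28 and -0.29 to the brightest. Those of Gng7 ran from 9.74 to 10.21 (r 0.46) and from 8.78 to 9.12 (r 0.06), and that of Pde1b from 14.82 to 15.02 (r 0.75). The order of the arrays for a marker thus depends on the probe.

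**Figure D1:**
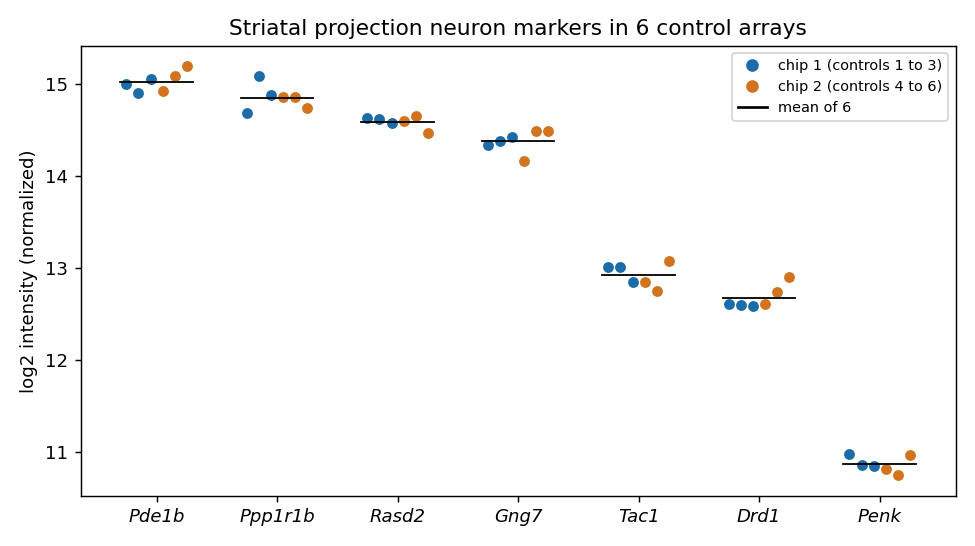
Normalized log2 intensity of the 7 striatal projection neuron markers, by the brightest probe of each, on each of the 6 control arrays. Chip 1 is in blue, chip 2 in orange, and a line marks the mean. The points of each gene lie within 0.41 log2 units of one another, and the levels run from Pde1b at a mean of 15.03 to Penk at 10.86.

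A longer list of 35 projection neuron genes with a probe includes these 7 markers. Of the other 28 genes, 25 were detected on all 6 arrays, and 10 of the 25 were among the 1000 brightest genes, which make up 10.1% of all detected genes. Arpp21, a cAMP-regulated phosphoprotein of these neurons, was the brightest, at 15.40 ± 0.10 (15.29 to 15.55) and ranks 7 to 20. The mean level of the list ran only from 11.64 on control 4 to 11.84 on control 5. Under median scaling in place of quantile normalization, control 4 became the highest array for this list and control 1 the lowest, so the order of the arrays is not settled. The widest spread within the list belonged to Cnr1, the CB1 cannabinoid receptor, at 7.57 on control 6 to 8.96 on control 2 (mean 8.32 ± 0.47).

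Genes of the direct and indirect pathways were both well represented. Of 9 direct pathway genes 8 were detected, with a list level of 10.46 to 10.58. Pdyn, the dynorphin precursor, measured 12.82 ± 0.14 (12.59 to 12.96), close in spread to Tac1 and Drd1. Of 6 indirect pathway genes 5 were detected, with a list level of 8.72 to 9.10. Drd2, the dopamine D2 receptor, lay at 10.72 to 10.94 on 5 arrays and at 10.12 on control 4, which set it apart from the rest (mean 10.68 ± 0.28). Penk did not share that gap, as control 4 stood at 10.81 and within the range of the other arrays. Gpr6, an orphan receptor of indirect pathway neurons, measured 9.54 ± 0.12, with control 4 lowest at 9.36 and the others at 9.50 to 9.69. Adora2a, an adenosine receptor gene of these neurons, is not analysed here.

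Of 18 interneuron genes 16 (88.9%) were detected, against 52.1% of all named genes. Among the 1000 brightest genes, 10.1% of those detected, were 4 of the 16. They were Sst and the GABA genes Slc32a1, Gad1 and Gad2. Chat, the enzyme that makes acetylcholine and marks cholinergic interneurons, measured 9.41 ± 0.25, with control 1 highest at 9.85 and the other arrays at 9.19 to 9.56. Sst and Npy, the somatostatin and neuropeptide Y genes of one interneuron class, measured 12.43 ± 0.18 (12.10 to 12.58) and 11.50 ± 0.11 (11.36 to 11.63). Pvalb, which marks fast-spiking interneurons, varied far more, from 9.54 on control 6 to 11.44 on control 4 (median 10.34, mean 10.33 ± 0.65). The GABA genes Slc32a1, the vesicular transporter, Gad1 and Gad2, the synthetic enzymes, which the projection neurons share, stood at 13.95 ± 0.07, 13.32 ± 0.10 and 13.10 ± 0.17. For striosomes, the patches of projection neurons set in the striatal matrix, 5 of 6 listed genes were detected, of which Nnat was the most variable at 8.30 on control 2 to 9.96 on control 4 (mean 9.07 ± 0.54).

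The machinery behind the dopamine receptors gave some of the brightest signals. In the list of cAMP and phosphatase signalling, 22 of 24 genes (91.7%) were detected, against 52.1% of all named genes. Of the 22, 13 were among the 1000 brightest genes, which make up 10.1% of all detected genes. Prkacb, a catalytic subunit of protein kinase A, measured 14.75 ± 0.11 and Ppp3ca, the calcineurin catalytic subunit, 14.73 ± 0.17. Among phosphodiesterases 12 of 17 were detected, with Pde10a, a dual-substrate enzyme concentrated in striatal neurons, at 11.23 ± 0.22. Of the RGS proteins, which shorten G-protein signals, 14 of 17 were detected. Rgs9, the striatal member that acts on D2 receptor signals, was the brightest of them at 14.35 ± 0.12 and ranks 68 to 100. Of the dopamine receptors themselves, Drd1 and Drd2 were the only 2 of 5 detected on all 6 arrays. Among genes of dopamine synthesis and transport 4 of 8 were detected, and Th, the rate-limiting enzyme made mainly in midbrain cell bodies, was dim at 6.55 ± 0.17 (6.39 to 6.83) and ranks 13314 to 14946.

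Transmitter receptors were detected in part, and non-detection of a probe does not show that a transcript is missing. Of the glutamate receptor genes 14 of 21 were detected, led by the AMPA receptor subunits Gria2 at 13.26 ± 0.12 and Gria1 at 12.18 ± 0.20 and the metabotropic receptor Grm5 at 11.39 ± 0.21. Of the GABA receptor genes 7 of 12 were detected, of the acetylcholine receptor genes 4 of 16, and of the serotonin receptor genes 4 of 14. Several genes known to be active in striatal neurons were among the undetected. Snap25, a core protein of vesicle fusion, had 2 probes and Adcy5, the main striatal adenylyl cyclase, Calb1, the matrix protein calbindin, and Oprm1, the striosomal mu opioid receptor, 1 probe each, and all were detected on 0 arrays. Chrm4, the muscarinic receptor of direct pathway neurons, was detected on 1 array. In the list of synaptic vesicle release, 17 of 20 genes were detected, with Syt1, the calcium sensor of release, at 14.32 ± 0.09 and Cplx1, a complexin that clamps it, at 14.26 ± 0.12.

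Glial and vascular genes were also measured on all arrays. Detected were 14 of 17 oligodendrocyte genes, 9 of 10 of their precursors, 17 of 19 of astrocytes, 15 of 17 of microglia and 13 of 18 of endothelial and mural cells. Mbp, the myelin basic protein gene, held ranks 6 to 21 at 15.38 ± 0.12. Slc1a3, the astrocyte glutamate transporter, measured 13.88 ± 0.11, and Laptm5, a lysosomal gene of microglia, 11.58 ± 0.15. Slc2a1, the glucose transporter of the blood-brain barrier, measured 11.25 ± 0.39 (10.75 to 11.72). Haemoglobin transcripts were bright: Hbb-bs measured 13.47 ± 0.22 and Hba-a1 13.15 ± 0.26, and their near-identical gene copies may share a probe.

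Markers of neighbouring tissue were detected in part. Of 12 genes of cortical excitatory neurons 6 were detected, of 14 thalamic genes 9, of 7 choroid plexus genes 2, of 11 ependymal genes 7 and of 7 septal and pallidal genes 1. Some of these genes are also active in the striatum, so their detection alone does not place foreign tissue in the samples. Lists of tissues that a forebrain dissection should lack gave the lower end: 13 of 111 such genes with a probe were detected on all 6 arrays and 67 on none. Detected were 2 of 38 Hox genes, 2 of 19 liver genes, 4 of 18 genes of skeletal and heart muscle, 2 of 19 of testis and germ cells and 3 of 17 of hindbrain and midbrain neurons. The brightest of the 13 was Acta1, skeletal muscle actin, at 8.64 ± 0.24, and the next was the germ cell gene Dazl at 7.53 ± 0.12. The others lay at or below Myl4, a myosin light chain, at 6.99 ± 0.35. These shares give the detection of genes chosen as unlikely in this tissue, and are a lower end and not a typical share. Over all named genes 52.1% were detected on all 6 arrays. A list near that share was detected about as often as genes in general.

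**Figure D2:**
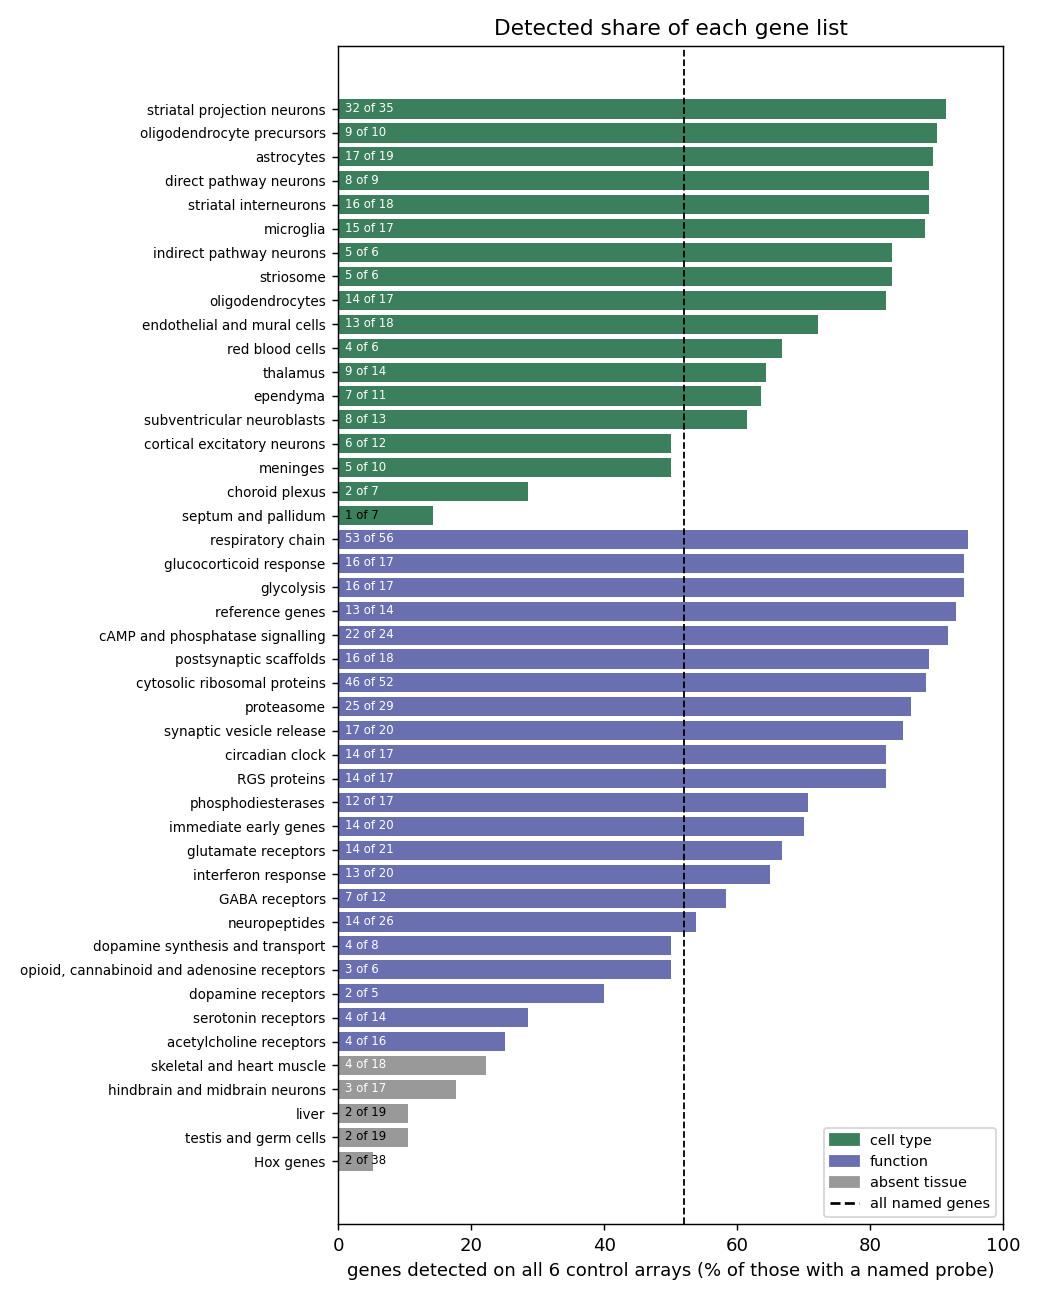
Share of the genes with a named probe that were detected on all 6 control arrays, for 45 gene lists grouped as cell types, functions and absent tissues, with the share over all named genes (52.1%) dashed. Striatal projection neuron (32 of 35), astrocyte (17 of 19) and respiratory chain (53 of 56) lists lie far above the dashed line, whereas the absent tissue lists and the acetylcholine and serotonin receptor lists (4 of 16 and 4 of 14) lie below it.

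The brightest 30 genes combined housekeeping and striatal transcripts. Ckb, brain-type creatine kinase, which buffers ATP, held rank 1 or 2 on every array at 15.70 ± 0.021 (15.67 to 15.71). Quantile normalization ties the value of a probe to its rank, so the small SDs of the very brightest probes follow partly from their ranks. The raw intensity of Ckb ran from 49800.2 to 58579.9. Fth1, the ferritin heavy chain that stores iron, followed at 15.62 ± 0.032 and ranks 2 to 5. Of the 30 genes, 6 belonged to the list of cytosolic ribosomal proteins, 3 to the projection neuron list (Arpp21, Pde1b and Ppp1r1b), 3 to cAMP and phosphatase signalling and 2 to the respiratory chain. Hpca, the neuronal calcium sensor hippocalcin, measured 14.86 ± 0.071, Camk2n1, an inhibitor of CaM kinase II, 15.07 ± 0.10, and Camk2b, a subunit of that kinase, 14.70 ± 0.12. Mitochondrially encoded ND4 and CYTB, subunits of respiratory complexes, measured 15.45 ± 0.079 and 15.44 ± 0.076. Signals of ribosomal proteins, Eef1a1, Ubb-ps and other members of families with near-identical copies are uncertain as to the gene.

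Most transcripts were steady across the 6 controls. The median SD of a detected gene was 0.161 log2 units, and 6174 genes (62.2%) had less than 0.5 log2 units between their lowest and highest array. A range over 2-fold was found for 364 genes (3.67%) and 722 probes (4.04%), and the number of probes was 420 without control 4 and 456 without control 1. The number depends more on the processing: it was 82 without background correction or with the authors' values, 206 with an offset of 50 and 1089 under median scaling. Functions that all cells need were among the steadiest by list level, and the level of some neuronal lists varied about as little. The SD of the list level was 0.039 for RGS proteins, 0.040 for synaptic vesicle release and 0.041 for cAMP and phosphatase signalling. It was 0.021 for glycolysis, 0.034 for cytosolic ribosomal proteins, 0.038 for the proteasome and 0.053 for the respiratory chain. A list level can be steady while its genes vary, since members that move apart cancel. The median SD of a member was 0.174 for RGS proteins, 0.125 for synaptic vesicle release and 0.139 for cAMP and phosphatase signalling. For glycolysis it was 0.134, for cytosolic ribosomal proteins 0.099, for the proteasome 0.107 and for the respiratory chain 0.107. The level of 46 cytosolic ribosomal protein genes ran from 12.74 to 12.83, of 53 respiratory chain genes from 11.73 to 11.90, of 16 glycolysis genes from 11.18 to 11.24 and of 25 proteasome genes from 11.26 to 11.36. This narrowness depends on quantile normalization: under median scaling the same levels ran from 12.73 to 13.00, from 11.71 to 12.02, from 11.09 to 11.36 and from 11.23 to 11.54. Among single genes in the upper part of the level range, Ppp3cb, a calcineurin catalytic subunit, varied least at 13.73 ± 0.015 (13.71 to 13.75), ahead of Cpsf7, a subunit of the pre-mRNA cleavage factor, at 11.10 ± 0.017 and Nfe2l1, a transcription factor of proteasome genes, at 11.98 ± 0.021. Common reference genes were not all this steady: Ppia, cyclophilin A, measured 14.83 ± 0.032 and Gapdh 13.68 ± 0.10, whereas the brightest Actb probe ran from 14.33 on control 6 to 14.93 on control 5 (mean 14.63 ± 0.22).

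**Figure D3:**
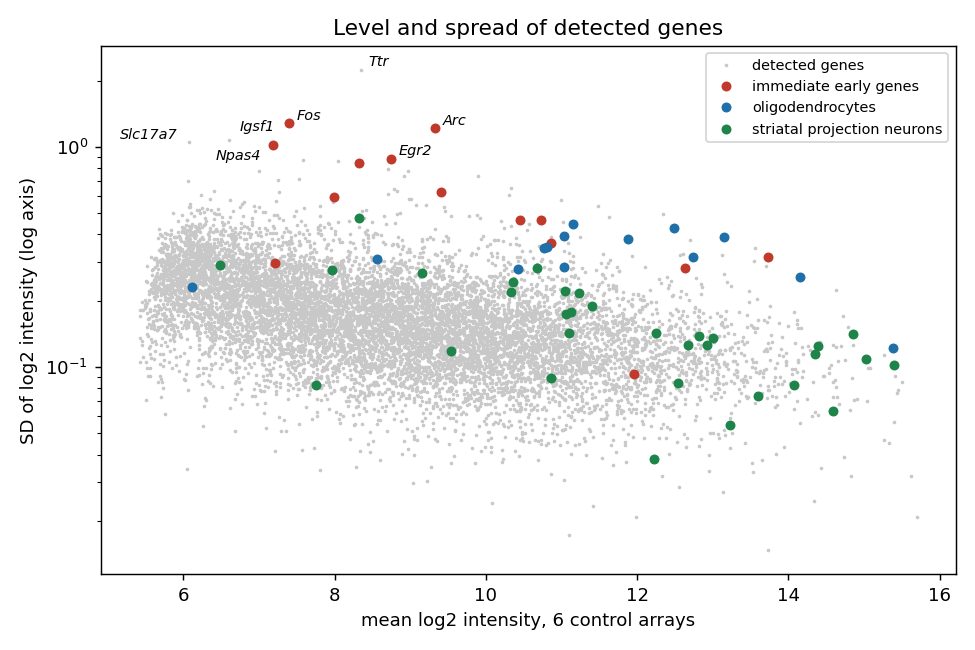
SD of the log2 intensity over the 6 control arrays (log axis) against the mean log2 intensity for 9920 detected genes, with 3 gene lists in colour. Projection neuron genes lie within the cloud, while Ttr (SD 2.23), Slc17a7, Igsf1 and immediate early genes such as Fos (SD 1.28) and Arc (SD 1.22) lie above it.

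Immediate early genes, whose transcription rises within minutes of neuronal activity, were the functional list that varied most between controls. Of 20 genes 14 were detected, and 10 of the 14 had a range over 2-fold, against 3.67% of all detected genes. The 200 genes with the largest SD, 2.02% of those detected, held 9 of the 14. The list level was 9.05 on control 3, 9.29 on control 2, 9.37 on control 5, 9.75 on control 4, 10.36 on control 6 and 10.45 on control 1. Controls 1 and 6, the highest, lie on different chips, and control 3 was the lowest array under each of the scalings run. Under median scaling control 6 replaced control 1 as the highest, and without control 1 or without control 3 the number of members over 2-fold was 8.

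Fos, the AP-1 subunit most used as a mark of recent activity, measured 8.83, 6.21, 5.98, 7.75, 6.76 and 8.86 on controls 1 to 6 (mean 7.40 ± 1.28). Arc, whose product acts at synapses, measured 10.78, 8.24, 8.16, 9.47, 8.55 and 10.77 in the same order (mean 9.33 ± 1.22). For both genes controls 1 and 6 were high, control 4 was in between and controls 2, 3 and 5 were low. Npas4, a neuron-specific transcription factor, ran from 6.11 on control 2 to 8.69 on control 6 (median 6.91, mean 7.19 ± 1.01), and Egr2, a zinc finger factor, from 7.70 on control 3 to 9.90 on control 1 (median 8.60, mean 8.75 ± 0.88). Fosl2 and Junb, further AP-1 subunits, had SDs of 0.84 and 0.63. Egr1, the brightest of the list at 13.73 ± 0.32, kept the same end points, with 13.36 on control 3 and 14.21 on control 1. Homer1, a postsynaptic scaffold gene with a constitutive and an activity-induced form, was the steadiest at 11.96 ± 0.09. Controls 1 and 6 were the 2 highest arrays for 12 of the 14 genes, and the lowest was control 2 or 3 for all 14. Across the 6 arrays the 91 pairs of these genes had a median Pearson r of 0.87 (0.12 to 0.99), against 0.0017 over all pairs of detected genes, where all pairs share the same 6 arrays.

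The promoters of these co-varying genes are shown because cAMP- and calcium-driven transcription acts through the cAMP response element, which CREB binds. RefSeq windows from 250 bases before to 50 bases after the annotated start (assembly GRCm38.p6) were searched on both strands for the core TGACG and the full palindrome TGACGTCA, which contains the core on each strand. Of the 14 detected genes 9 had exactly 1 window, and 6 of the 9 held the core, which was found in 33.4% of 6313 detected genes with 1 window and in 20.6% of 22862 genes in all. The 6 windows follow, 5′ to 3′ on the strand of the gene, with the core or its reverse complement CGTCA in capitals.
Fos (GRCm38.p6, chr12:85473640-85473939, plus strand): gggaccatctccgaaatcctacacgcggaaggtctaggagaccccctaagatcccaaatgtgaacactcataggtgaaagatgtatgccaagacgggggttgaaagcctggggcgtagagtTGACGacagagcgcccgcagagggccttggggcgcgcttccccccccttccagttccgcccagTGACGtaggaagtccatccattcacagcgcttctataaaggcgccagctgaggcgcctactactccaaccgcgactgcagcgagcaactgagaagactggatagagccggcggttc
Fosb (GRCm38.p6, chr7:19309996-19310295, minus strand): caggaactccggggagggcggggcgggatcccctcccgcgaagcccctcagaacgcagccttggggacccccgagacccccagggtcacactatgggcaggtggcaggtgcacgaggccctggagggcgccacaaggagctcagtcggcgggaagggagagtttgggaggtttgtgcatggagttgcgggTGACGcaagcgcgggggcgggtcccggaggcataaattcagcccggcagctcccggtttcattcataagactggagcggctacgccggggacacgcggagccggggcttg
Junb (GRCm38.p6, chr8:84978699-84978998, minus strand): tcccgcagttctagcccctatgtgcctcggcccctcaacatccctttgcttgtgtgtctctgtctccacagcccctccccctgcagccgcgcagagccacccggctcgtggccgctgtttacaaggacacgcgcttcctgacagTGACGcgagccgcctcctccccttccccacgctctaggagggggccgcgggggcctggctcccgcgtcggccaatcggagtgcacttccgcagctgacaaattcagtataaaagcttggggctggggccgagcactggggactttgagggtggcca
Egr4 (GRCm38.p6, chr6:85513540-85513839, minus strand): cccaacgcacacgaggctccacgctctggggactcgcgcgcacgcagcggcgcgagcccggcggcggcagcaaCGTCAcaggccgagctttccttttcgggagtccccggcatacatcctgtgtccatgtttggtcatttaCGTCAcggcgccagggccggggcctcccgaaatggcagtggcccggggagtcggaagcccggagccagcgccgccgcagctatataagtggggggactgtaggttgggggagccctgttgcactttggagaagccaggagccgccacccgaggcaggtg
Npas4 (GRCm38.p6, chr19:4989922-4990221, minus strand): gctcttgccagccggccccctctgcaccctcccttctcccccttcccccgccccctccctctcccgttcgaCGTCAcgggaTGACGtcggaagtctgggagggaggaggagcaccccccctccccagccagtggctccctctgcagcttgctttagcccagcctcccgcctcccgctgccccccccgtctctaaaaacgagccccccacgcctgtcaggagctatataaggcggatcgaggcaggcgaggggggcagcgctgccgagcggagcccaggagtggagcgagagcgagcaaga
Dusp1 (GRCm38.p6, chr17:26508423-26508722, minus strand): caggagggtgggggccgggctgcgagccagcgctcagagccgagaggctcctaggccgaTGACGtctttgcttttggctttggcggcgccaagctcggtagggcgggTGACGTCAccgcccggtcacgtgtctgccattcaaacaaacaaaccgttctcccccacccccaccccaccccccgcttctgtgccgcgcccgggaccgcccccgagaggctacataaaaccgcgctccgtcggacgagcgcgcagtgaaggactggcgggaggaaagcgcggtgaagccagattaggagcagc
In Fos the cores begin at positions -129 and -66 relative to the start, and in Junb and Fosb a single core begins at -106 and -60. The full palindrome was found in Dusp1 alone of the 9, beginning at -143, and in 3.56% of detected genes. The windows of Fosl2, Jun and Dusp6 held no core. These letters are a description of the windows and not evidence of binding, and whether they bear on the spread between arrays was not tested. The 6 genes with a core had SDs from 0.47 (Egr4 and Dusp1, a phosphatase of MAP kinases) to 1.28 (Fos), and the 3 without one had SDs of 0.84 (Fosl2), 0.37 (Dusp6) and 0.30 (Jun). The CArG box, the site of serum response factor, was found in 0 of the 9 windows, in 1.39% of detected genes with 1 window and in 1.53% of all 22862 such genes. At shares this low, 0 of 9 does not show that immediate early genes lack the site. Sequence over 250 bases before the start was not searched, nor were Egr1, Egr2, Egr3, Arc and Homer1, which had no window or several. TATAAA was found in 2 of the 9, in 7.16% of detected genes and in 14.8% of all.

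Control 4 differed from the other arrays in glial genes. The mean level of the oligodendrocyte list was 11.12 to 11.41 on the other 5 arrays and 11.97 on control 4, where 13 of the 14 members had their highest value. Over all detected genes 20.6% had their highest value on control 4. Mag, a myelin adhesion protein, measured 13.84 there and 12.70 to 13.26 elsewhere, Trf, the iron carrier transferrin made by oligodendrocytes, 13.32 against 12.19 to 12.50, and Mal, a myelin proteolipid, 12.03 against 10.79 to 11.18. The 14 members had a median pairwise r of 0.86 over the 6 arrays. A range over 2-fold was found for 5 of them, for 0 without control 4, and for 12 under median scaling, where 6.20% of all detected genes had one.

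The astrocyte list followed, at 9.82 to 9.97 on the other arrays and 10.26 on control 4, with 13 of 17 members highest there. Gfap, the astrocyte intermediate filament, ran from 8.16 on control 1 to 9.78 on control 4 (median 8.61, mean 8.82 ± 0.63), and control 5 at 9.38 came next. Of 15 microglial genes 8, of 13 endothelial and mural genes 8 and of 7 ependymal genes 5 were highest on control 4. The interferon response list was 8.35 on control 4 and 7.75 to 7.95 elsewhere, with 12 of 13 members highest there, among them Oasl2 at 7.00 and Ifi27 at 11.43. Control 4 was the highest array for the oligodendrocyte, astrocyte, endothelial, ependymal and interferon lists under each scaling run. Under median scaling this was not particular to them, since control 4 was then the highest array for 32 of 39 lists and for 56.2% of all detected genes, whereas under the other scalings it was so for 13 of 39 lists and between 20.6 and 23.0% of genes. It was also the array with the most detected probes and the largest root mean square deviation from the mean of all arrays, 0.215 against 0.190 ± 0.020 over the 6. The part of dissection, cell composition or array handling in these differences was not tested.

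**Figure D4:**
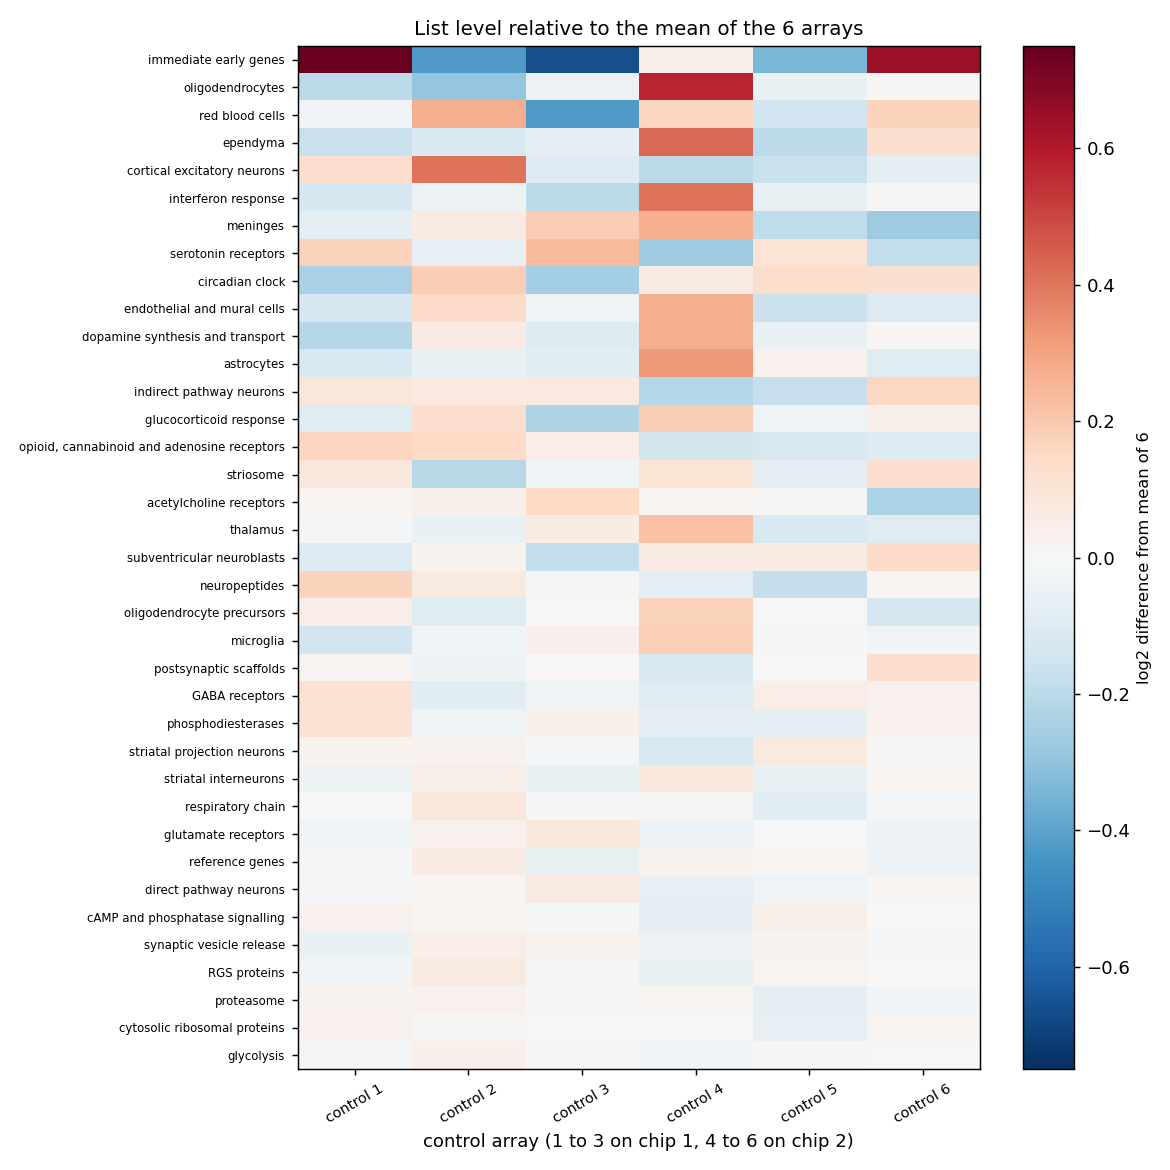
Mean log2 level of each gene list on each control array minus its mean over the 6 arrays, for lists with at least 3 detected genes, ordered by SD. Immediate early genes are high on controls 1 and 6, glial and interferon lists are high on control 4, and ribosomal, proteasome and glycolysis lists at the foot differ little.

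The single most variable transcript was Ttr, transthyretin, which choroid plexus makes in great amount. It measured 5.44 on control 1, 5.56 on control 2, 9.84 on control 3, 10.35 on control 4, 9.58 on control 5 and 9.33 on control 6 (mean 8.35 ± 2.23). Controls 1 and 2 thus sat near the lower end of detected signals and the other 4 far above it. Clic6, the other choroid plexus gene detected, did not follow, at 9.62 on control 6 to 9.95 on control 2 (mean 9.71 ± 0.12). The other 5 choroid plexus genes with a probe fell short of detection on all 6 arrays. Aqp1, an aquaporin, and Tmem72 were detected on 0 arrays. Kl, which encodes klotho, and Otx2, a homeobox factor, were each detected on controls 4 and 6 only, and the 2 probes of Folr1, a folate receptor, on controls 4 and 6 and on controls 4 and 5. All 3 genes were thus undetected on controls 1 and 2, where Ttr was low, and also on control 3, where it was high; whether choroid plexus was included in some samples was not tested further.

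Among the genes with the largest SD, 3 had a high value on control 2 that the outlier screen below flagged. They were grouped after their values were seen. Others stood highest on control 2 without passing the cut of that screen. Ccn2 measured 9.66 on control 2 and 7.22 to 8.22 elsewhere, and Cpne9 9.96 against 8.07 to 8.84. Slc17a7, the vesicular glutamate transporter of cortical neurons, measured 8.17 on control 2 and 5.42 to 5.89 on the other arrays. Cck, the cholecystokinin gene, which stands in the interneuron and neuropeptide lists, measured 8.47 there against 6.66 to 7.26, and Nrn1, the activity-regulated neuritin gene, 7.41 against 5.59 to 6.16. The low values of Slc17a7 and Nrn1 lay near the lower end of detected signals, whose 5th percentile was 5.86 log2 units. Raw intensities ran from 148.8 to 406.3 for Slc17a7 and from 150.9 to 286.7 for Nrn1, a smaller gap in log2 units than after background correction. The cortical list as a whole reached 9.94 on control 2 and 9.33 to 9.65 elsewhere, but its 6 members did not move as one, with a median pairwise r of -0.05. Slc17a7 and Nrgn were highest on control 2, whereas Mef2c and Cux2 were lowest there, and Fezf2, Lamp5 and Mef2c were highest on control 1. Slc17a6, the transporter of thalamic neurons, was highest on control 4 at 7.14 and lowest on control 6 at 5.66 (mean 6.35 ± 0.58). Whether pieces of neighbouring cortex or thalamus contributed was not tested.

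Several clock genes differed on controls 1 and 3 from the other 4 arrays. Ciart, a repressor in the circadian loop, measured 8.84 and 9.06 on controls 1 and 3 and 10.24 to 10.46 on the other 4 (mean 9.89 ± 0.74). Bhlhe40, another clock repressor, measured 9.36 and 9.32 against 10.04 to 10.41, and Per2, a core clock gene, 10.62 and 10.30 against 11.19 to 11.42. Arntl, which encodes the activator BMAL1, lay the other way, at 8.79 and 8.83 on controls 1 and 3 and 7.93 to 8.31 on the others. Of 14 detected clock genes 3 had a range over 2-fold, against 3.67% of all detected genes, and 7 under median scaling, against 6.20% of all, where control 4 replaced control 2 as the highest array and control 1 replaced control 3 as the lowest. The labels used here give no time of day. Tsc22d3, a glucocorticoid-induced regulator also called GILZ, ran from 10.05 on control 3 to 11.16 on control 4 (mean 10.54 ± 0.42), and 2 of 16 genes of the glucocorticoid list had a range over 2-fold, against the same 3.67%.

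Where a gene had several detected probes, these gave a check on level and on spread. For 3714 such genes the brightest and the dimmest probe lay a median of 1.69 log2 units apart, and 501 genes (13.5%) had a gap over 4. Arpp21 had 7 detected probes from 5.88 to 15.40 and Mbp 5 from 7.38 to 15.38, so that the level of a gene depends on the probe chosen. The 2 brightest probes of a gene had a median r of 0.336 over the 6 arrays. Over 3 groups of 1238 genes formed by the smaller SD of the 2 probes, the median r was 0.217, 0.309 and 0.498 from the least to the most variable, and in the 25 genes where both SDs were over 0.4, a choice that favours probes that vary together, it was 0.932. Ide, the insulin-degrading enzyme, had an SD of 0.79 by its brightest probe, but its 2 probes ran against each other, with r of -0.60.

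The 3 arrays of a chip were somewhat more alike than arrays of different chips. Chip took up 27.1% of the variance of detected probes over the 6 arrays, where a split unrelated to the values would take 20%, and Spearman's rho between arrays had a median of 0.986 over 6 pairs on the same chip and 0.984 over 9 pairs on different chips. A limma fit of chip 2 minus chip 1 over 17865 probes, with 3 arrays on each, called 1 probe at a Benjamini-Hochberg adjusted p under 0.05, which is 0.0056% of those tested. It belonged to Pde1a, a calmodulin-dependent phosphodiesterase, and measured 8.19, 8.38 and 8.21 on chip 1 and 7.19, 7.03 and 6.88 on chip 2, a log2 difference of -1.23 (SE 0.12, adjusted p = 0.0366 by limma). The other 2 detected probes of Pde1a differed by -1.09 (adjusted p = 0.111 by limma) and -1.05 (adjusted p = 0.189 by limma), also with no overlap between the chips. The call was lost when any array was left out, with adjusted p from 0.0649 to 0.181 by limma for this probe, while the difference itself stayed between -1.31 and -1.15. Without control 3 Ttr was called instead, 4.25 log2 units higher on chip 2 (adjusted p = 0.000365 by limma), and without control 2 a Ciart probe, 1.39 higher (adjusted p = 0.0488 by limma). In each case the array left out was the chip 1 array whose value lay among those of chip 2. Ttr measured 9.84 on control 3 and the Ciart probe 10.42 on control 2. With all 6 arrays neither was called. At an unadjusted p under 0.05 stood 1802 probes (10.1%), where 893.25 would be counted on average if no probe differed. Probes are not independent of each other, which widens the scatter of such a count, and that scatter was not estimated. None of the 7 striatal markers passed, with adjusted p from 0.711 to 0.999 by limma.

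Detection also divided genes by the base composition of their promoters. Among detected genes with 1 RefSeq window, 75.9% (4789 of 6313, 95% Wilson interval 74.8 to 76.9) had an observed over expected CpG ratio above 0.6, as CpG islands do. Among genes detected on no array the share was 21.7% (983 of 4536, interval 20.5 to 22.9). Within the detected genes it climbed with level, from 62.4% in the dimmest of 5 equal groups through 72.9, 77.7 and 82.7% to 83.6% in the brightest. Genes are not independent of each other, and the intervals cover counting error only.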

How the data were processed

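The 6 control arrays of 12 were analysed. Groups were taken from the labels, and chips were read from the number in the sample titles. The authors deposited a raw table of linear intensity values, each with its detection p-value, per the file headers; a second deposited table holds normalized intensity values. The submitters' processing notes name GenomeStudio 1.9.0, whose background setting is not given in the sources used here. With limma (version 3.58.1, R 4.3.3) and its function neqc, background was estimated on all 12 arrays through the detection p-values and removed, 16 was added, and quantile normalized log2 values were formed. Quantile normalization gives all arrays 1 set of values, which limits the spread of the very brightest probes. A single symbol was available for 34885 probes, more than 1 for 18 and none for 10378, from the platform annotation. RefSeq (GRCm38.p6) held 34807 of the named probes' genes and altered 0 symbols. A list level is the mean of its genes detected on all 6 arrays. The gene lists, markers and named genes were chosen with earlier results of these data known. Named were fixed genes, the 30 brightest, the 25 with the largest SD, the 10 steadiest, and the highest members of each list by level and SD, of which the text gives a selection; it also names further members with their values. The chip test was a two-sided limma fit with eBayes, checked on simulated data. No count of molecules exists for arrays, and their number limits the precision. No control array was a copy of another, as the closest pair was 0.252 log2 units apart in root mean square. Alternatives were another offset, no background correction, median scaling, cyclic loess, normalizing the controls alone, the authors' values, other detection filters, averaging of probes, and leaving out each array.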

Additional observations from a re-analysis of the deposited data

Results flagged for a closer look

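Of 121 values screened with Dixon's test in the group of 6 (79 genes, gene lists and array measures), 11 had 1 array far from the others. For an unselected value chance alone flags about 1 in 20. That rate does not hold for this set. Some genes were picked for a large or small SD on these same arrays, and lists share members. The count of 11 can therefore not be set against chance. On control 4, Drd2 was low at 10.12 against 10.72 to 10.94, and Cst3, the protease inhibitor cystatin C, was high at 15.09 against 14.76 to 14.88. The oligodendrocyte list was high on control 4 at 11.97 against 11.12 to 11.41, the astrocyte list at 10.26 against 9.82 to 9.97, and the interferon response list at 8.35 against 7.75 to 7.95. On control 2, Slc17a7 was high at 8.17 against 5.42 to 5.89, Cck at 8.47 against 6.66 to 7.26, and Nrn1 at 7.41 against 5.59 to 6.16. The low values of Slc17a7 and Nrn1 lay near the lower end of detected signals. On control 3, Eef1a1, the translation elongation factor, was high at 15.35 against 15.22 to 15.26. Its rank was 17 there and 21 or 22 on the other arrays, and quantile normalization ties the value to the rank. Cpsf7 was high on control 3 at 11.14 against 11.09 to 11.10. On control 6, the list of 4 detected acetylcholine receptor genes was low at 6.47 against 6.72 to 6.85.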

How the results depend on the processing

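The number of detected probes was 15539 at a detection p under 0.01, 18955 and 20842 with detection on at least 5 and at least 3 arrays, and 17936 to 18212 when an array was left out. The root mean square deviation of an array from the mean was 0.156 with an offset of 50, 0.121 without background correction or with the authors' values, and 0.180 to 0.192 when an array was left out. The 722 probes with a range over 2-fold became 206 with an offset of 50, 82 without background correction or with the authors' values, 1089 under median scaling, 437 at a detection p under 0.01, 1298 with detection on at least 3 arrays, 306 after subtraction of chip means, and 420 (without control 4) to 646 when an array was left out. The 1 probe called between chips became 4, 6 and 6 with an offset of 50, no background correction and the authors' values, 0 under median scaling, 2 at a detection p under 0.01, 0 with detection on at least 3 arrays, 20 with a trended robust fit, and 0 to 1 when an array was left out; under median scaling 1861 probes and with detection on at least 3 arrays 2017 had an unadjusted p under 0.05. Agreement between probes of a gene was 0.496 under median scaling and 0.296 to 0.378 when an array was left out. The promoter CpG share was 77.9% at a detection p under 0.01 and 83.4% at a ratio above 0.5. The cause of these shifts was not tested. Of 82 gene and list levels, 28 moved by 1 SD or more with an offset of 50 and 47 without background correction. With the authors' values 47 moved, and with the mean of all probes 37. All stayed within 1 SD under median scaling, cyclic loess and controls normalized alone. Those settings shifted the mean of a detected probe by a median of only 0.0069, -0.0030 and 0.0035 log2 units. All also stayed within 1 SD with every left-out array, but leaving out 1 of 6 values cannot move their mean that far. This says nothing about how robust the levels are. The highest array was the same for 51 of 82 under median scaling. No paired analysis was possible because only the control group was analysed. Low signals limit precision: the 25th percentile of the level of detected probes was 6.80 log2 units.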
